A study of Mus musculus with 10 samples.

Results

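The proteasome is the large protease that degrades ubiquitin-tagged proteins. This account describes ribosome footprints on the genes that encode its subunits, its activators and its assembly chaperones in mouse embryonic stem cells that lack a component of the microRNA pathway. The members are all rows of the footprint count table whose symbol begins with Psm, a letter from a to g and a digit. There are 47 such rows among the 11011 genes of the table, and all 47 passed the filter on low counts, which kept 10978 genes. They comprise 31 standard subunits of the 26S particle, 4 immunoproteasome genes (Psmb9, Psmb10, Psme1 and Psme2), 7 assembly chaperones, the testis subunit Psma8, the activators Psme3 and Psme4, and the inhibitor Psmf1. The remaining row, Psmc3ip, meets the symbol rule but encodes a meiotic recombination factor named for an interaction with Psmc3, and it is not a proteasome subunit. The immunoproteasome gene Psmb8 was not analysed here.

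Ribosome profiling was done on 10 libraries, 2 from each of 5 groups: cells labelled Dgcr8 knockout, Drosha knockout, Dicer knockout and Ago1&Ago2 double knockout, and wild type (WT) cells. Dgcr8 and Drosha cut microRNA primary transcripts in the nucleus, Dicer cuts the resulting hairpins in the cytoplasm, and Ago1 and Ago2 carry the mature microRNA to its targets. All groups are E14 cells of 129/Ola background, a line taken from the blastocyst, grown in serum with LIF on gelatin and given cycloheximide before harvest to hold ribosomes on their transcripts. The labels do not say how the alleles were made, whether a knockout is 1 clone or several, or whether the 2 libraries of a group came from separate cultures, so p-values measure the spread between these libraries, which may be technical.

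The 20S core of the proteasome is a stack of outer alpha rings and inner beta rings, and Psmb5, Psmb6 and Psmb7 carry its standard proteolytic sites. The 19S cap at its ends holds the Psmc ATPases, which unfold the substrate, and Psmd subunits, some of which bind or remove ubiquitin. Interferon-gamma is known to induce Psmb8, Psmb9 and Psmb10, which replace Psmb5, Psmb6 and Psmb7 in the immunoproteasome, and Psme1 and Psme2, which form the PA28 alpha-beta activator ring. The immunoproteasome cuts proteins into peptides suited to display on MHC class I, and pluripotent stem cells are known for low class I display.

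Total counts ran between 1754710 in Dicer library 2 and 80850950 in Dgcr8 library 1, so the shallow libraries (both Drosha libraries and Dicer library 2) carry the least precise values. Levels are given in CPM, the count scaled to a common library size by the trimmed mean of M-values (TMM), and 3 counts correspond to between 0.0371 CPM in the deepest library and 1.71 CPM in the shallowest. Footprints on the targeted genes were low in libraries of their own label for Drosha (24.3 and 34.5 CPM, against 177 and 178 in WT), Dicer1 (15.8 and 22.1, against 122 and 124 in WT) and Ago2 (14.9 and 6.61, against 81.9 and 81.9 in WT). Ago1 had 27.0 and 10.7 CPM in the double knockout, against 14.7 and 14.3 in WT, so it was not uniformly lower. Dgcr8 was higher, not lower, in libraries of its own label, with 145 and 146 CPM in the libraries labelled Dgcr8 knockout and 32.7 and 33.1 in WT. The other knockouts also lay above WT for this gene: the Drosha libraries had 169 and 197 CPM, the Dicer libraries 64.5 and 76.1 CPM, and the double knockout libraries 74.6 and 63.5 CPM. The deleted part of the gene is not in the labels, so these counts cannot check the label, and every direction given for those libraries rests on the label alone. Pluripotent markers, 8 of 8 in the table, summed to between 4199 and 5599 CPM in the knockout libraries, against 5162 and 5080 in WT. The sum hides Klf4, the 1 of the 8 called lower in Drosha, Dicer and Ago1&Ago2 knockout cells. Klf4 had 17.4 and 22.1 CPM in Dicer knockout cells, against 135.1 and 157.6 CPM in WT cells (edgeR adjusted p = 0.0018). In Dicer knockout cells 6 of the 8 markers had a negative and 2 a positive log2 fold change. Among the negative ones, uncalled, were Zfp42 (634.6 and 658.6 CPM, against 1091 and 1176 in WT) and Tdgf1 (406.4 and 231.1, against 671.9 and 436.4). The sum also hides Dppa5a, which had 2631 and 1516 CPM in Dicer knockout cells, against 1082 and 1107 CPM in WT cells, and did not pass (adjusted p = 0.21).

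Since Psme2 carries the only call made among the members, its sequence context is shown first. The gene lies at chr14:55587441-55591113 on the minus strand (GRCm38), and its partner Psme1 lies at chr14:55578123-55581529 on the plus strand, so the annotated starts are 12990 bases apart and the 3′ ends face each other. The mouse genome also holds Psme2b at chr11:48945354-48946190, which differs from the Psme2 coding sequence at 5 of 717 bases, an identity of 99.3%. Coding bases 484 to 543, counted from the A of the start codon, hold 3 of these differences, which stand in capitals.
Psme2: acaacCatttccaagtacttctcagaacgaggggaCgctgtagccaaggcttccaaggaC
Psme2b: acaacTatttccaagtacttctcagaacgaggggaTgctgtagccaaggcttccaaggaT
Of the 28-base words along the Psme2 coding sequence, about the length of a footprint, 80.6% also occur in another annotated transcript. Counts assigned to Psme2 may therefore include footprints of the near-identical copy, or may miss footprints that could not be placed, and Psme2b was not analysed here.

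The promoters of the 2 activator genes and of Psmb9 are shown because interferon-responsive sequences near these genes are known to drive them. Each window runs from 250 bases before to 50 bases after the RefSeq start (GRCm38.p6), 5′ to 3′ on the strand of the gene, with matches to any of 4 searched motifs in capitals.
Psme1, chr14:55578244-55578543, plus strand: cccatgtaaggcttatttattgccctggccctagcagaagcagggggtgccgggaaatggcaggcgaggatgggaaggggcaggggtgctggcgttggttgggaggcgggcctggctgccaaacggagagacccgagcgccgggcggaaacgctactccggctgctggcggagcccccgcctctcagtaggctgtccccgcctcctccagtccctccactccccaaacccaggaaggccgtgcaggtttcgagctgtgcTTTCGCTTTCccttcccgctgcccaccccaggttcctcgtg
Psme2, chr14:55591052-55591351, minus strand: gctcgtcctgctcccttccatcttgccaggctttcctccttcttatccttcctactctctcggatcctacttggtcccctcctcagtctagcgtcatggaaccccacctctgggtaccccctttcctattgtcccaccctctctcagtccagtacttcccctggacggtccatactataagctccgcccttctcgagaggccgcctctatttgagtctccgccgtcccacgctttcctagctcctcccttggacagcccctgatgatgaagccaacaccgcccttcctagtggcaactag
Psmb9, chr17:34187281-34187580, minus strand: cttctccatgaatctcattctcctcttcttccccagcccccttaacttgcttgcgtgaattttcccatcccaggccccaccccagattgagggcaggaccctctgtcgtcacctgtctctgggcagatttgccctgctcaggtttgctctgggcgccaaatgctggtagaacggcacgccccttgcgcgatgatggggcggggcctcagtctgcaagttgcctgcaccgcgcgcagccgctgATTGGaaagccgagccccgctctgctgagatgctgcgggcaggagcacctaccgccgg

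Both strands of each window were searched for the cores of the interferon response element (GAAA, any 2 bases, GAAA), the gamma-activated site (TTCNNNGAA) and the antioxidant response element (TGACNNNGC), and for CCAAT, and no 2 of these overlap in the windows shown. The Psme1 window holds the interferon response core on the opposite strand, beginning 9 bases after the start. That core is present in 3.44% of the 32851 RefSeq windows of this length and in the windows of 5 of the 39 members that have one: Psmb3, Psmd4, Psmd9, Psme1 and Psmg4. The Psmb9 window holds CCAAT on the opposite strand, 8 bases before the start, a motif found in 37.4% of all windows and in 14 of 39 members. The gamma-activated core is in 8.3% of windows and in 2 members, Psmd2 and Psmg1. The antioxidant core, which the transcription factor Nfe2l1 is known to use when it induces proteasome genes, is in 12.4% of windows and in 6 members, namely Psmb5, Psmb6, Psmc6, Psmd9, Psmd12 and Psme4. These are letter matches only, and the Psme2 window shown holds none of the 4. The percentages count windows, while a member counts when any of its windows holds the motif, so they differ in unit.

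Among the members, 1 gene changed past the threshold. Psme2, the beta subunit of the PA28 activator, had 87.0 and 50.2 CPM in Dicer knockout cells, against 14.1 and 12.4 CPM in WT cells. It rose 5.21-fold in Dicer knockout cells, a log2 fold change of 2.38 with a standard error of 0.36 (edgeR quasi-likelihood test, Benjamini-Hochberg adjusted p = 0.0031 over all genes). The 2 Dicer libraries did not overlap the 2 WT libraries. Psme2 is the 1 member of 47 called in that comparison, in which 11.1% of all tested genes were called. The call was lost when WT library 2 was left out (log2 fold change 2.29, adjusted p = 0.057), and it held in the other 16 of 17 alternative settings, over which the log2 fold change ran between 1.93 and 2.71.

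In the other knockouts Psme2 did not pass. It had 36.9 and 21.4 CPM in Drosha knockout cells, a log2 fold change over WT of 1.13 with a standard error of 0.36 (edgeR adjusted p = 0.12). In Ago1&Ago2 double knockout cells it had 24.4 and 23.2 CPM, a log2 fold change of 0.84 with a standard error of 0.35 (edgeR adjusted p = 0.21). The libraries of both groups lay above both WT libraries. The libraries labelled Dgcr8 knockout had 11.3 and 11.8 CPM, below both WT libraries, with a log2 fold change of -0.20 and an adjusted p of 0.92. Called genes made up 3.44% of all tested genes for Drosha knockout over WT, 2.88% for the Ago1&Ago2 double knockout and 0.0729% for the Dgcr8 label, and none of the 47 members was among them.

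**Figure D1:**
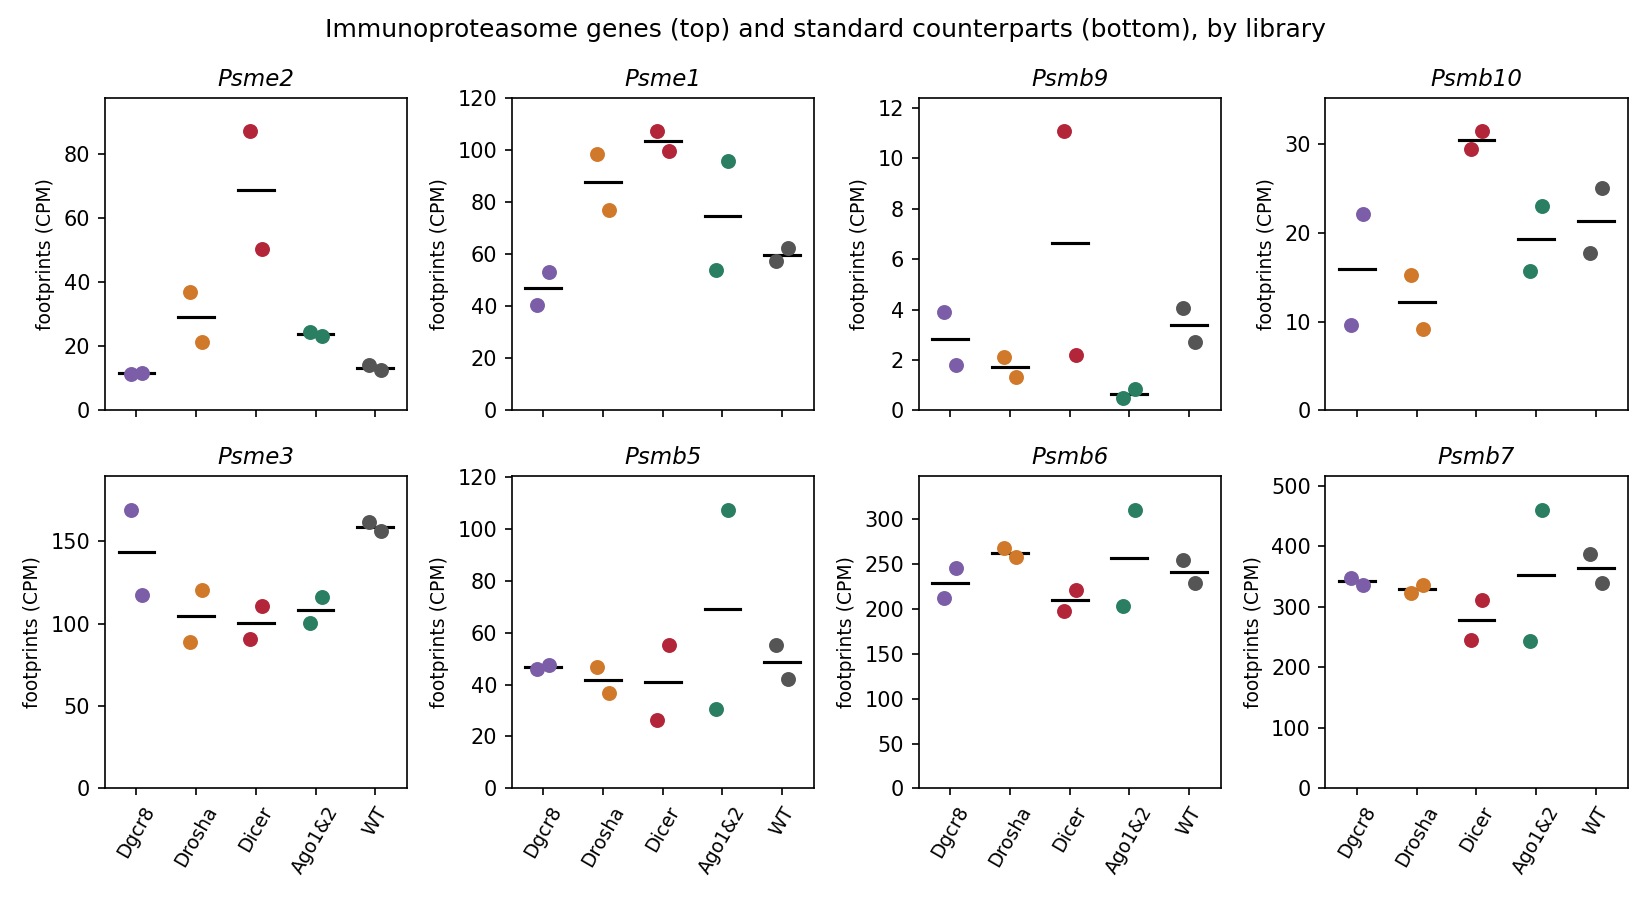
Footprint level (CPM, vertical axis from 0) of the 4 immunoproteasome genes in the top row and of the standard counterparts Psme3, Psmb5, Psmb6 and Psmb7 in the bottom row, with 1 point per library, a bar at the mean of 2, and the knockouts left of WT. Psme2 reached 87.0 and 50.2 CPM in Dicer knockout cells, against 14.1 and 12.4 CPM in WT cells.

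Psme1, the alpha subunit that assembles with Psme2, had 107 and 99.9 CPM in Dicer knockout cells and 98.7 and 76.9 CPM in Drosha knockout cells, against 57.3 and 62.2 CPM in WT cells. Both pairs lay above WT. The log2 fold changes were 0.79 (edgeR adjusted p = 0.13) in Dicer and 0.55 (adjusted p = 0.38) in Drosha knockout cells, and neither passed. The Ago1&Ago2 libraries had 54.0 and 95.7 CPM, on either side of WT, and the libraries labelled Dgcr8 knockout had 40.5 and 53.2 CPM, below it. The log2 ratio of Psme2 to Psme1 levels was -0.30 and -0.99 in the Dicer libraries, against -2.02 and -2.32 in the WT libraries, and these pairs did not overlap. It was -1.42 and -1.84 in the Drosha libraries, -1.15 and -2.04 in the Ago1&Ago2 libraries and -1.84 and -2.18 in those labelled Dgcr8 knockout.

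Psmb9, the interferon-induced proteolytic subunit that replaces Psmb6, was the least occupied member in WT. It had 11.1 and 2.21 CPM in Dicer knockout cells, from 56 and 4 counts, against 4.06 and 2.70 CPM in WT cells, from 44 and 65 counts. The Dicer libraries lie on either side of the WT pair, and the fold change rests on Dicer library 1. Its log2 fold change was 1.08 with a standard error of 0.74 (edgeR adjusted p = 0.38), and it was -0.60 without Dicer library 1. In Ago1&Ago2 double knockout cells Psmb9 had 0.50 and 0.83 CPM, from 7 and 28 counts, both below WT, with a log2 fold change of -2.29, a standard error of 0.77 and an adjusted p of 0.13. The Drosha libraries had 4 and 3 counts, the second at the limit of 3 counts, and those labelled Dgcr8 knockout had 3.90 and 1.79 CPM. Psmb9 amounted to 5.58% and 0.995% of Psmb6 footprints in the Dicer libraries, 0.243% and 0.267% in the Ago1&Ago2 libraries, and 1.59% and 1.18% in the WT libraries.

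Psmb10, which replaces Psmb7, had 29.5 and 31.4 CPM in Dicer knockout cells, against 17.7 and 25.1 CPM in WT cells. The Dicer pair lay above the WT pair, but the log2 fold change of 0.50 with a standard error of 0.44 did not pass (edgeR adjusted p = 0.50). As a share of Psmb7 footprints it amounted to 12.0% and 10.1% in the Dicer libraries, against 4.58% and 7.36% in the WT libraries. The other 3 knockout groups had Psmb10 log2 fold changes of -0.46 under the Dgcr8 label, -0.82 in Drosha and -0.14 in Ago1&Ago2 double knockout cells, with none past the threshold. The 4 immunoproteasome genes together summed to 234.7 and 183.7 CPM in the Dicer libraries, 153 and 108.8 in the Drosha libraries, 94.6 and 142.8 in the Ago1&Ago2 libraries, 65.4 and 88.9 in those labelled Dgcr8 knockout, and 93.1 and 102.4 in the WT libraries. Of these 4 genes, 1 rose in Dicer knockout cells and 3 did not pass the test.

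The counterparts of these genes did not pass in any knockout. Psme3, which encodes the nuclear PA28 gamma activator, had 90.6 and 110.9 CPM in Dicer knockout cells, against 161.7 and 156.4 CPM in WT cells, a log2 fold change of -0.66 (edgeR adjusted p = 0.16). All 6 libraries of Drosha, Dicer and Ago1&Ago2 knockout cells lay below both WT libraries for this gene, between 88.6 and 120.6 CPM. Psmb5 had 26.5 and 55.2 CPM in Dicer knockout cells, against 55.3 and 42.4 CPM in WT cells. Psmb6 had 198.3 and 221.8 CPM in Dicer knockout cells, against 254.9 and 229.0 in WT cells. For Psmb7 the values were 245.4 and 311.1 CPM in Dicer knockout cells, against 386.6 and 340.2 in WT cells. The Dicer pairs of Psmb6 and Psmb7 lay below the WT pairs, while those of Psmb5 overlapped.

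None of the 31 standard 26S subunits that match the symbol rule passed the threshold in any knockout. In Dicer knockout cells 30 of these 31 subunits had a negative log2 fold change, with a median of -0.33, against a median of -0.0035 and 50.2% negative over all tested genes. Without Dicer library 2 the median was -0.52. Psmc3, an ATPase of the cap, was the exception, with 345.3 and 343.1 CPM in Dicer knockout cells and 326.3 and 322.5 in WT cells. Both Dicer libraries lay below both WT libraries for 25 of the 31 subunits, where 34.6% of all genes did so and 11.1% of genes were called. The sum of the 31 subunits was 6207 and 6875 CPM in the Dicer libraries, against 8655 and 8281 CPM in the WT libraries. In bulk footprint libraries, fewer cells that make a transcript, less of it per cell and fewer ribosomes on it cannot be told apart.

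In Drosha knockout cells 25 of the 31 subunits had a negative log2 fold change, with a median of -0.16, and 13 had both libraries below both WT libraries, against 27.9% of all genes. Their sum was 7012 and 8010 CPM in the Drosha libraries. In Ago1&Ago2 double knockout cells 21 were negative, with a median of -0.18, and 7 lay below WT in both libraries, against 26.1% of all genes. The sum was 5920 CPM in Ago1&Ago2 library 1 and 9216 CPM in library 2, on either side of WT, and the median was 0.15 without library 1 and -0.52 without library 2. Under the Dgcr8 label the median was -0.013, with 16 negative and 15 positive, and the sum was 8346 and 8488 CPM. These comparisons share the same 2 WT libraries.

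**Figure D2:**
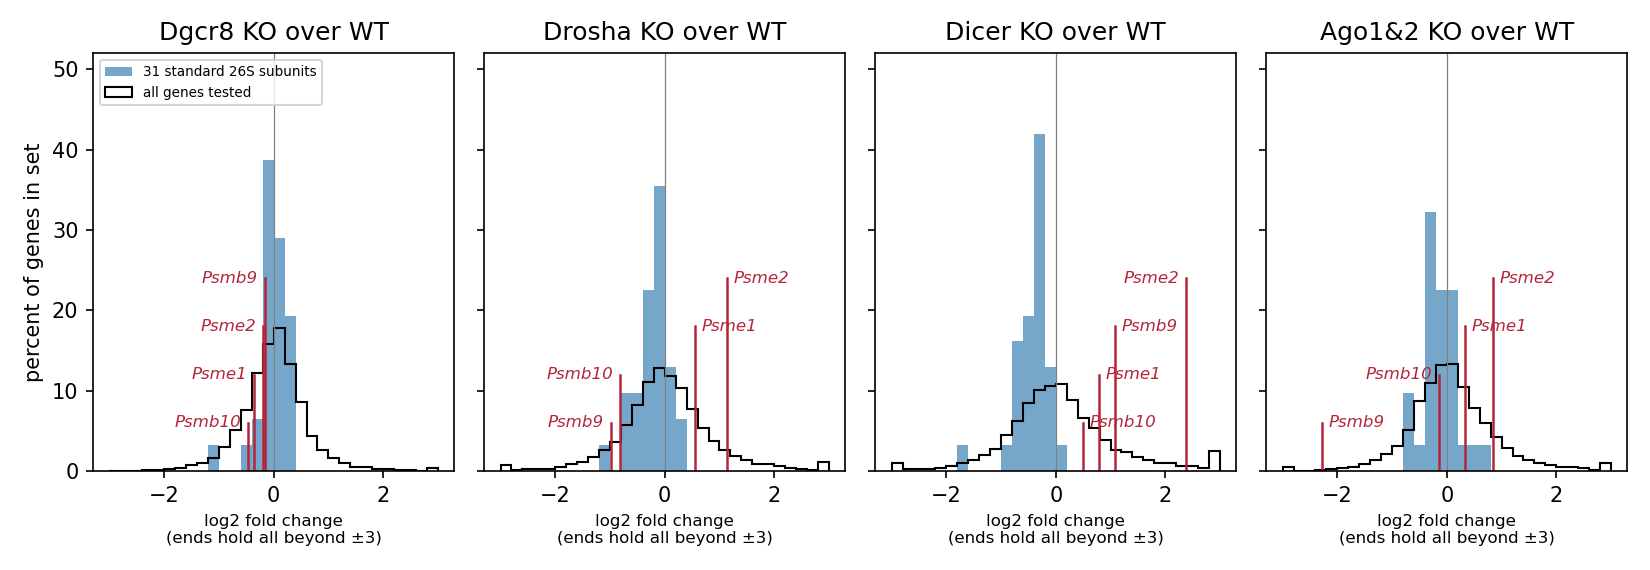
Share of genes (percent, vertical axis) by log2 fold change of each knockout over WT (horizontal axis, with everything beyond 3 in the end bins), for the 31 standard 26S subunits (filled) and all tested genes (outline), with the 4 immunoproteasome genes as labelled lines whose height has no meaning. In the Dicer panel the subunits have a median of -0.33 and all genes a median of -0.0035, while Psme2 stands at 2.38.

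Within the 20S core, the 7 alpha ring genes had a median log2 fold change of -0.45 in Dicer knockout cells (-0.29 without Dicer library 1), and all 7 were negative. Psma3 had the lowest, at -1.67 with a standard error of 0.50 and an edgeR adjusted p of 0.054. It had 6.72 and 6.62 CPM in Dicer knockout cells, 13.7 and 6.99 in Drosha knockout cells, 9.76 and 23.7 in Ago1&Ago2 double knockout cells and 9.30 and 11.4 in those labelled Dgcr8 knockout, against 20.7 and 21.9 CPM in WT cells. All groups but the Ago1&Ago2 double knockout lay below WT in both libraries. DESeq2 called Psma3 in Dicer knockout cells (log2 fold change -1.65, adjusted p = 0.021). Of its 28-base words, 92.4% occur in other annotated transcripts, so its counts may hold only a part of its footprints, or footprints of its copies.

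Psma6, the alpha ring gene with the highest level, differed little. It had 345.5 and 401.0 CPM in Dicer knockout cells, against 413.1 and 354.2 CPM in WT cells, and its log2 fold changes ran between -0.04 in Dicer knockout cells and 0.37 under the Dgcr8 label. The other 5 alpha ring genes had log2 fold changes in Dicer knockout cells between -0.65 for Psma4 and -0.15 for Psma5. Psma8, which replaces the ring subunit Psma7 in the testis, had 8.70 and 8.28 CPM in Dicer knockout cells and 7.39 and 5.24 CPM in Drosha knockout cells, against 16.2 and 12.1 CPM in WT cells. Both pairs lay below WT without passing (edgeR adjusted p = 0.36 in Dicer and 0.24 in Drosha knockout cells). The 7 standard beta ring genes had a median of -0.28 in Dicer knockout cells (-0.16 without Dicer library 1) and all were negative, the lowest being Psmb3 at -0.56.

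In the 19S cap, the 6 ATPases had a median log2 fold change of -0.31 in Dicer knockout cells, the lowest being Psmc6 at -0.61, and the median was -0.20 without Dicer library 1 and -0.21 without WT library 1. The 11 non-ATPase subunits that match the symbol rule had a median of -0.46, and all 11 were negative. Psmd1, the scaffold that receives ubiquitin-binding factors, had 465.3 and 488.2 CPM in Dicer knockout cells, 446.3 and 585.8 in Drosha knockout cells, 410.1 and 543.3 in Ago1&Ago2 double knockout cells and 505.0 and 519.8 in those labelled Dgcr8 knockout, against 717.0 and 790.8 CPM in WT cells. All 8 knockout libraries lay below both WT libraries. Over the mean of the 4 knockouts its log2 fold change against WT was -0.61 with a standard error of 0.20 (edgeR adjusted p = 0.098). No member passed in that comparison, in which 7.07% of all genes were called, and 6 of 47 members and 23.7% of all genes had an unadjusted p under 0.05. DESeq2 called Psme2 and Psmd1 there, and limma-voom called Psme2.

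Psmd7, the partner of the deubiquitinating subunit Psmd14, had 169.5 and 170.5 CPM in Dicer knockout cells, against 292.0 and 305.2 CPM in WT cells. Its log2 fold change was -0.81 with a standard error of 0.27 (edgeR adjusted p = 0.076), and DESeq2 called it (adjusted p = 0.037). Psmd8 had 112.3 and 146.7 CPM in Dicer knockout cells, against 232.8 and 199.7 CPM in WT cells, a log2 fold change of -0.74 (edgeR adjusted p = 0.11). Both Dicer pairs lay below WT. Among Drosha libraries, Psmd7 had 217.4 and 205.3 CPM and Psmd8 had 143.0 and 141.5 CPM, again below WT. In the Ago1&Ago2 libraries Psmd7 had 163.6 and 226.0 CPM and Psmd8 had 122.1 and 149.1 CPM. The summed level of the 11 non-ATPase subunits was 2493 and 2664 CPM in the Dicer libraries and lay between 2362 and 3336 CPM over all 8 knockout libraries, against 3523 and 3567 CPM in the WT libraries. Psmd1 weighs heavily in this sum, with 717.0 and 790.8 CPM of the WT values. It had 505.0 and 519.8 of the 3336 and 3276 CPM under the Dgcr8 label. Under that label 5 of the 11 had a positive and 6 a negative log2 fold change, with a median of -0.013.

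Members with an unadjusted edgeR p under 0.05 numbered 9 of 47 in Dicer, 6 in Ago1&Ago2 and 2 in Drosha knockout cells and 1 under the Dgcr8 label. Of all 10978 tested genes, 27% had such a p for Dicer over WT (2965 genes), 19.7% for Ago1&Ago2 (2163), 19.2% for Drosha (2111) and 9.81% under the Dgcr8 label (1077). DESeq2 called 0 members for Drosha, for Ago1&Ago2 and under the Dgcr8 label, and 3 for Dicer. A fit of the Dicer and WT libraries alone called 3224 of 10926 genes, or 29.5%, and 11 of the 47 members, or 23.4%, of which Psme1 and Psme2 were higher and Psma1, Psma3, Psma4, Psmd1, Psmd7, Psmd8, Psmd9, Psme3 and Psmg3 were lower.

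**Figure D3:**
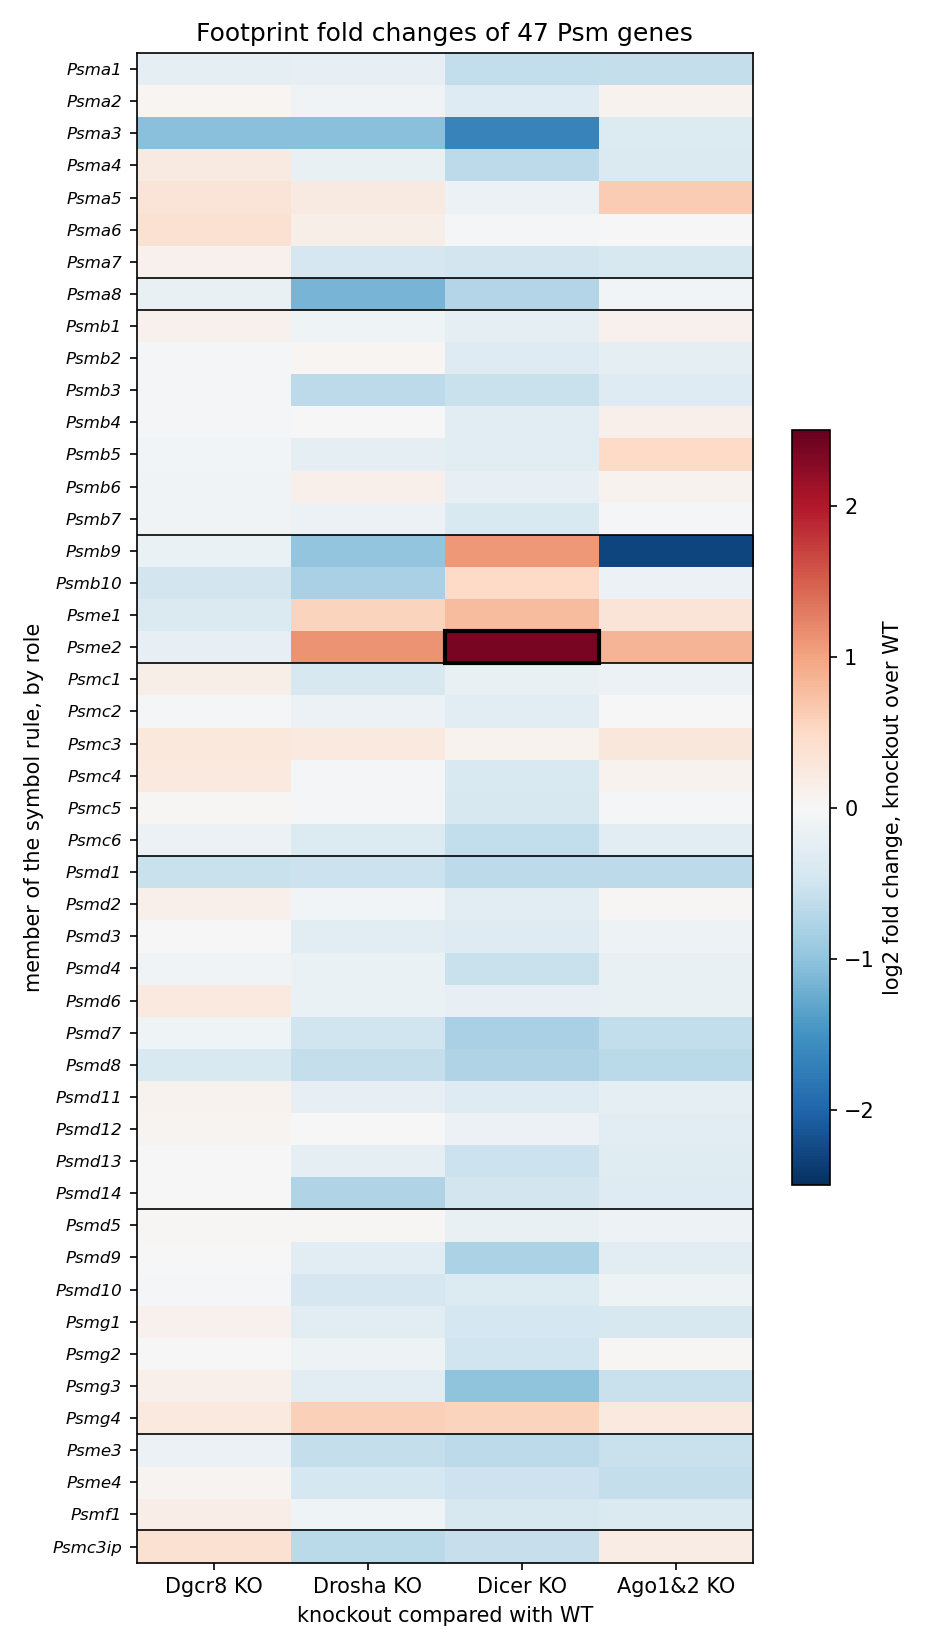
Log2 fold change of each knockout over WT (colour, red for higher and blue for lower) for all 47 members (rows, grouped by role) and the 4 knockouts (columns), with a black frame on the 1 cell past an adjusted p of 0.05. In the Dicer column Psme2 stands at 2.38 and 30 of 31 standard subunits are below 0.

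**Figure D4:**
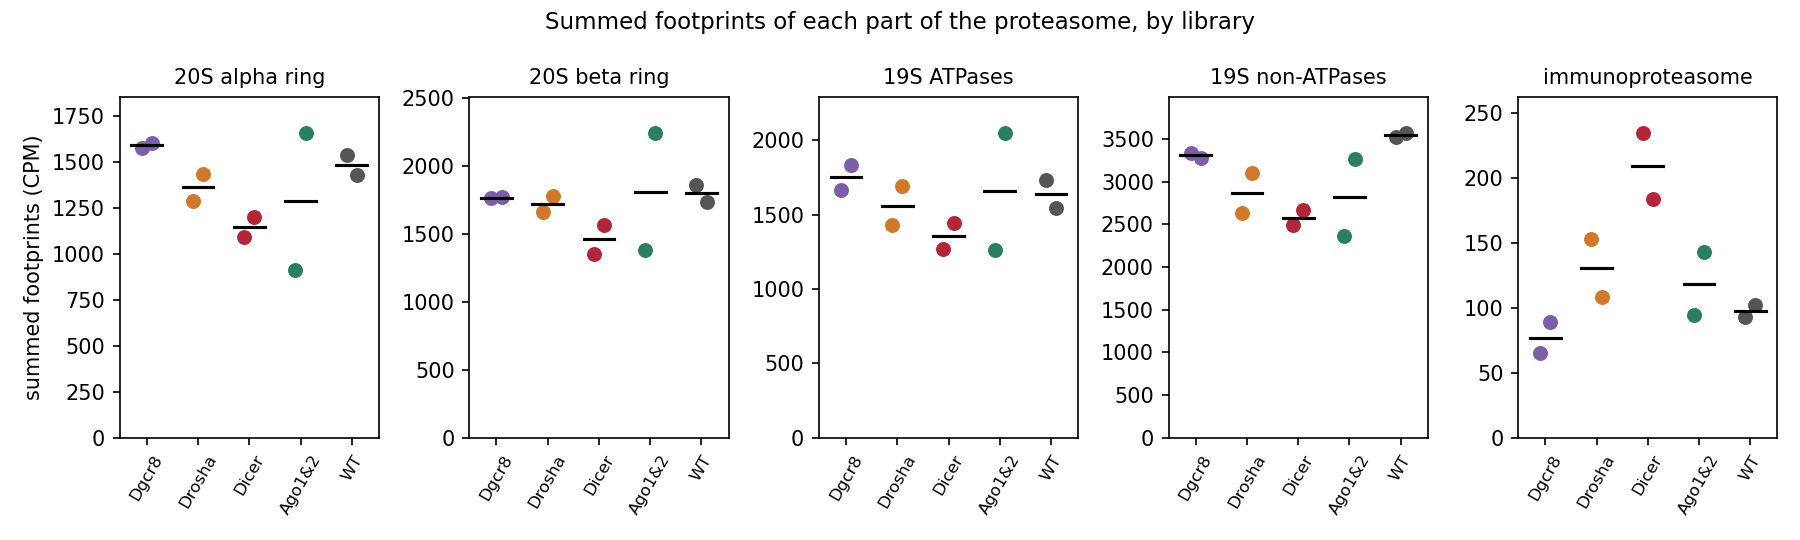
Summed footprint level (CPM, vertical axis from 0) of the alpha ring, beta ring, ATPase, non-ATPase and immunoproteasome genes, with 1 point per library, a bar at the mean of 2, and the knockouts left of WT. The non-ATPase sum is 2493 and 2664 CPM in the Dicer libraries and 3523 and 3567 CPM in the WT libraries, and the immunoproteasome sum is 234.7 and 183.7 against 93.1 and 102.4.

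The 7 assembly chaperones, which build the rings and the cap and then leave, had a median log2 fold change of -0.44 in Dicer knockout cells. None passed the test. Psmg3 had the lowest, with 7.12 and 7.17 CPM in Dicer knockout cells, against 14.8 and 13.9 CPM in WT cells, and Psmg4 the highest, with 41.1 and 45.2 CPM in Dicer knockout cells, against 26.2 and 32.3 CPM in WT cells. Psmd5, Psmd9, Psmd10, Psmg1 and Psmg2 lay between -0.78 and -0.18 on the log2 scale. Psme4, the nuclear PA200 activator, had 195.0 and 180.9 CPM in Dicer knockout cells, against 263.8 and 276.9 CPM in WT cells, a log2 fold change of -0.52. Psmf1, known as an inhibitor of the 20S core, had 31.8 and 37.5 CPM in Dicer knockout cells, against 41.7 and 49.2 CPM in WT cells. Psmc3ip, the meiotic factor, had log2 fold changes between -0.68 in Drosha knockout cells and 0.39 under the Dgcr8 label.

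To ask where the groups differ at all, the 5 groups were tested together. Psme2 was again the 1 member called (edgeR adjusted p = 0.0068), where 6.47% of all genes were called. An unadjusted p under 0.05 was found for 5 of the 47 members and for 2514 of all 10978 genes, or 22.9%. Set against each other, the libraries labelled Dgcr8 knockout and the Dicer knockout libraries differed in Psme2, with 11.3 and 11.8 CPM under the Dgcr8 label against 87.0 and 50.2 CPM in Dicer knockout cells, a log2 difference of -2.58 (edgeR adjusted p = 0.0064). It was the 1 member called in that pair, where 4.07% of genes were called and 8 of 47 members and 19% of all genes had an unadjusted p under 0.05, and the call was lost without Dicer library 1. In the other 5 pairs of knockouts no member was called, where 0.501% of genes were called for the Dgcr8 label against Drosha, 0.483% for the Dgcr8 label against Ago1&Ago2, 0.00911% for Drosha against Dicer, 0.0455% for Drosha against Ago1&Ago2 and 0.547% for Dicer against Ago1&Ago2. In the same order, an unadjusted p under 0.05 was found for 3, 3, 3, 0 and 3 of the 47 members and for 11.5%, 12.5%, 7.55%, 9.25% and 12.3% of all genes. Psme2 had a log2 difference of 1.54 for Dicer against Ago1&Ago2 with an adjusted p of 0.083, and DESeq2 called it there. Its difference of -1.25 for Drosha against Dicer did not pass (adjusted p = 0.41), so a difference between these 2 knockouts was not detected.

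Levels can be compared between genes once footprints are divided by coding length, here giving RPKM, the CPM per kilobase of the longest annotated coding sequence of the gene. In WT cells Psmb2 stood highest, at 559.4 ± 4.2 RPKM (SD, n = 2), followed by Psma6 at 519.9 ± 56.4, and Psmb9 stood lowest at 5.14 ± 1.46. The gap between the first and the second is within the spread of Psma6 over its 2 WT libraries. The first place depends on the length used. It went to Psmd13 at 1072 RPKM with the shortest coding sequence (288 bases, against 1128 for its longest). It went to Psmd2 at 644.2 RPKM with the median one (428 bases, against 2724 for its longest) and to Psmb7 at 654.8 RPKM with unshared positions alone. Sequence sharing limits this order, because 9 members have at least 50% of their 28-base words in other transcripts and 24 members have none. The 7 standard subunits above that limit, among them Psma3, Psma5, Psmb3 and Psmb5, had a median of 96.8 RPKM in WT cells, against 276.1 RPKM for the 24 below it. Over the 31 subunits the Spearman correlation of WT level and shared percentage was -0.54, a description across genes of the same 2 libraries.

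Among the 24 subunits with under 50% of their 28-base words shared, the 9 core subunits lay between 338.9 RPKM for Psmb6 and 559.4 RPKM for Psmb2 in WT cells. Each stood above every 19S subunit of the 24, whose highest was Psmd7 at 310.1 RPKM. Sharing among the 24 reached 49.5%, for Psmd2. With the median coding sequence of each gene the highest cap subunit, Psmd2, stood at 644.2 RPKM in WT cells. None of the 9 core subunits stood above it, so this order depends on the length used. That median is 428 bases for Psmd2, against 2724 for its longest coding sequence. With unshared positions alone all 9 core subunits stood above every cap subunit, the lowest being Psma7 at 367.9 RPKM and the highest cap subunit Psmd7 at 319.0 RPKM. Those values hold only if shared footprints were left out of the counts. The core holds its subunits in pairs, while each cap holds single copies. In Dicer knockout cells the same 9 core subunits lay between 259.4 and 505.8 RPKM, and the highest cap subunit, Psmc3, at 254.4 RPKM. The lowest core subunit, Psma7, was below Psmc3 in Dicer library 1, at 231.2 against 255.2 RPKM. It was also below Psmc3 in the means of the Drosha libraries, at 266.8 against 285.6 RPKM, and of the Ago1&Ago2 libraries, at 270.3 against 292.4 RPKM. Under the Dgcr8 label Psmb6 was below Psmd7 in library 1, at 296.9 against 333.4 RPKM. In library 2 of that label Psmb6 was below Psmc4, at 345.1 against 357.0 RPKM. In Ago1&Ago2 library 1, 6 of the 9 core subunits stood above the highest cap subunit. The core median was 334.8 RPKM in Dicer knockout cells and 444.2 RPKM in WT cells. For the 5 ATPases it was 188.6 RPKM in Dicer knockout cells and 243.9 RPKM in WT cells, and for the 10 non-ATPase subunits it was 177.6 RPKM in Dicer knockout cells and 263.9 RPKM in WT cells.

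**Figure D5:**
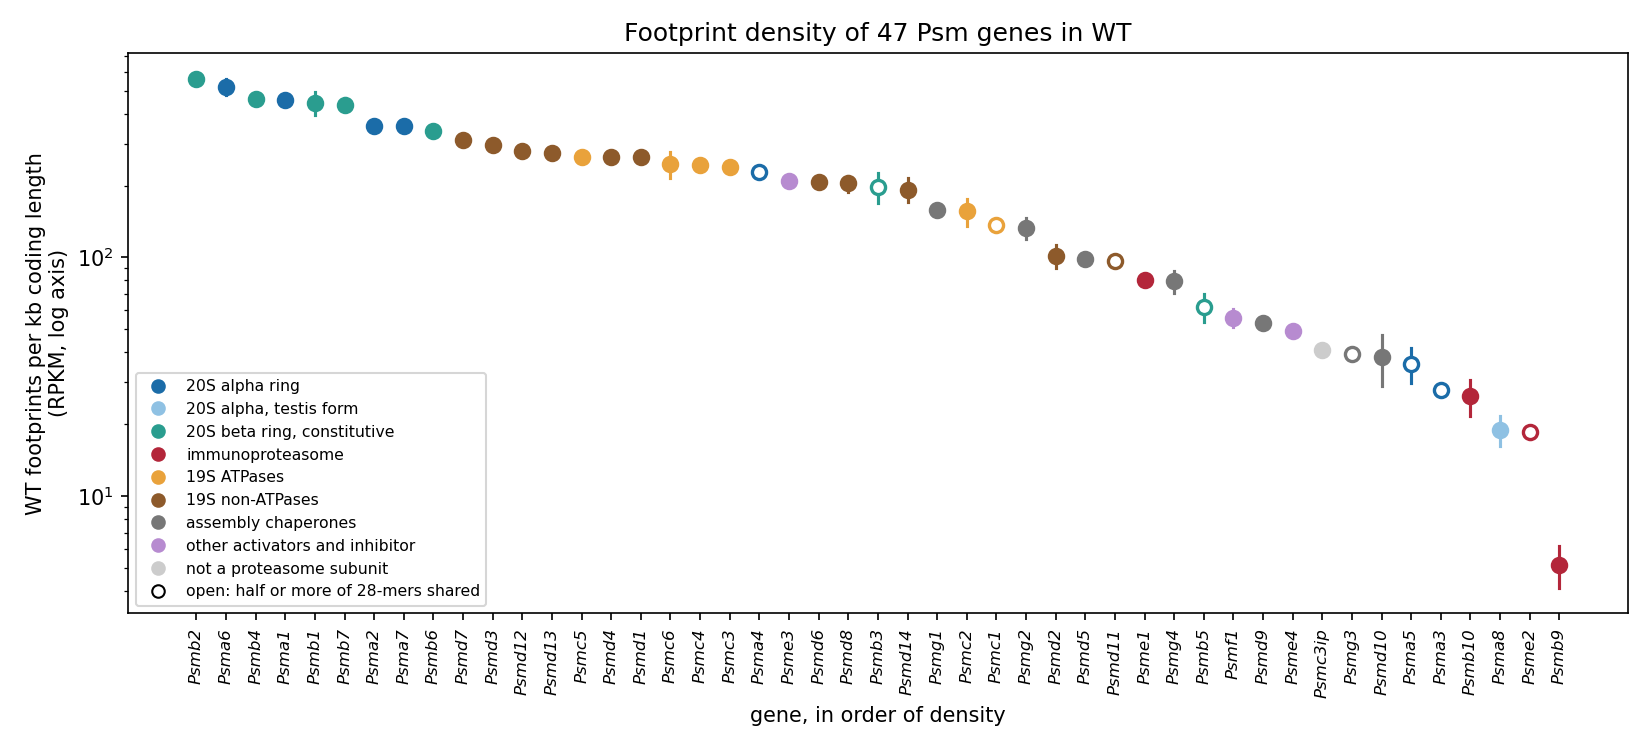
WT footprint density (RPKM, log axis) of the 47 members in order of level, with a point at the mean and a line joining the values of the 2 libraries, colours for roles, and open points where at least 50% of the 28-base words are shared with other transcripts. The 9 core subunits with filled points lie at 338.9 RPKM or more, above every 19S subunit when the longest coding sequence is used, and the immunoproteasome genes Psmb9, Psme2 and Psmb10 lie among the lowest.

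The immunoproteasome genes sat low in this order. Psme2 ranked 31 of 47 in Dicer knockout cells, at 95.7 RPKM, against 46 in WT cells, at 18.5 RPKM, with 80.6% of its words shared. Psme1 ranked 23 in Dicer and 33 in WT cells, Psmb10 ranked 38 in Dicer and 44 in WT cells, and Psmb9 ranked 46 in Dicer and 47 in WT cells. Psma8, the testis subunit, ranked 45 in both. The counterparts Psmb6 and Psmb7 stood at 338.9 and 437.3 RPKM in WT cells. Psmb5 stood at 61.7 RPKM, with 86.7% of its words shared. Divided only by coding positions with unshared words, its WT level came to 478.8 RPKM and that of Psme2 to 99.1 RPKM, values that hold only if shared footprints were left out of the counts, which is not given in the sources used here.

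The immunoproteasome genes belong to a larger group that prepares peptides for class I display, and of 13 further genes of that group 11 were tested. In Dicer knockout cells 2 of the 11 rose and none fell, where 11.1% of all tested genes were called. Tapbp, the tapasin that holds class I molecules at the peptide transporter, had 543.2 and 269.2 CPM in Dicer knockout cells, against 30.6 and 21.9 CPM in WT cells, a log2 fold change of 3.96 (edgeR adjusted p = 0.0018). Erap1, which trims peptides in the endoplasmic reticulum, had 175.6 and 85.5 CPM in Dicer knockout cells, against 6.73 and 4.40 CPM in WT cells, a log2 fold change of 4.58 (edgeR adjusted p = 0.0015). Tapbp also rose in Drosha knockout cells, by 2.26, and in Ago1&Ago2 double knockout cells, by 2.35 (adjusted p = 0.031 and 0.027), with 1 of 11 genes called in each, where 3.44% and 2.88% of all genes were called, and none under the Dgcr8 label. Tap2, a subunit of the peptide transporter, had 101.2 and 22.1 CPM in Dicer knockout cells, against 12.7 and 7.88 CPM in WT cells, and did not pass (adjusted p = 0.055). B2m, the light chain of class I, had 51.2 and 32.0 CPM in Dicer knockout cells, against 76.7 and 87.6 CPM in WT cells, with both Dicer libraries below WT and an adjusted p of 0.28.

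Of 13 interferon signalling genes 11 were tested, and 3 rose in Dicer, 2 in Drosha and 1 in Ago1&Ago2 double knockout cells, with none lower and none called under the Dgcr8 label. Over all tested genes 11.1%, 3.44% and 2.88% were called in these 3 knockouts. Irf9, the DNA-binding subunit of the complex that answers type I interferon, had 28.1 and 23.7 CPM in Dicer knockout cells, against 4.06 and 5.52 CPM in WT cells, a log2 fold change of 2.43 (edgeR adjusted p = 0.0042). It rose by 2.02 in Drosha and by 1.85 in Ago1&Ago2 double knockout cells. Irf1, a factor that is known to act on immunoproteasome promoters, had 76.5 and 63.4 CPM in Dicer knockout cells, against 20.3 and 16.1 CPM in WT cells, with an adjusted p of 0.0496. Jak2, a kinase of the interferon-gamma receptor, rose by 2.27 on the log2 scale in Dicer knockout cells, and Tyk2, a kinase of the type I receptor, rose by 1.72 in Drosha knockout cells.

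The list of proteasome cofactors outside the symbol rule held 25 symbols, some of them older names of the same gene, and 21 were tested. Of these, 2 were called in Dicer and 1 in Ago1&Ago2 double knockout cells, where 11.1% and 2.88% of all genes were called. Uchl5, a deubiquitinase that docks on the cap, fell in Dicer knockout cells to 66.4 and 76.1 CPM, against 200.8 and 204.1 CPM in WT cells, a log2 fold change of -1.51 (edgeR adjusted p = 0.021). It fell by 1.62 on the log2 scale in Ago1&Ago2 double knockout cells (edgeR adjusted p = 0.036). Ecpas, a protein that bridges core and cap, rose in Dicer knockout cells to 155.6 and 132.4 CPM, against 70.2 and 79.9 CPM in WT cells, a log2 fold change of 0.94 (edgeR adjusted p = 0.039). No other cofactor passed in any knockout, including Nfe2l1, which had 491.4 and 282.4 CPM in Dicer knockout cells and 436.6 and 387.9 CPM in WT cells, and the maturation factor Pomp, which had 184.1 and 154.5 CPM in Dicer knockout cells and 206.4 and 198.3 CPM in WT cells.

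Markers of other cell types differed between the groups along with these genes. Primitive endoderm markers, of which 7 of 8 were in the table, summed to 274.9 and 210.2 CPM in the Dicer libraries, 398.3 and 444.3 in Drosha, 553.6 and 426.9 in Ago1&Ago2 and 2683 and 268.0 under the Dgcr8 label, against 5034 and 5712 in WT, and the defining factor Gata6 was at 0 in both Dicer libraries. Trophectoderm markers, 4 of 7 in the table and without Cdx2, summed to 671.8 and 475.5 CPM in Dicer, 311.3 and 343.4 in Drosha, 157.1 and 178.2 in Ago1&Ago2 and 135.0 and 206.0 under the Dgcr8 label, against 125.3 and 136.1 in WT. All 4 had a positive log2 fold change in Dicer and in Drosha knockout cells. In Ago1&Ago2 double knockout cells 2 were positive and 2 negative. There Krt18 had 48.1 and 38.9 CPM, against 50.3 and 49.8 in WT, while Tfap2c had 75.8 and 106.4 CPM, against 45.3 and 46.5. Under the Dgcr8 label Tfap2c had 43.5 and 121.9 CPM. Blood and immune markers, 4 of 6 in the table and without Ptprc, summed to 509.8 and 342.6 CPM in Dicer, 496.4 and 388.4 in Drosha, 423.4 and 163.1 in Ago1&Ago2 and 282.6 and 328.9 under the Dgcr8 label, against 343.6 and 245.0 in WT. The 1 of these called was Coro1a, which fell in Dicer knockout cells to 3.76 and 3.31 CPM, against 20.5 and 23.2 CPM in WT cells (edgeR adjusted p = 0.0049). Fibroblast markers, 4 of 7 in the table and without Col1a1, summed to between 41.4 and 172.5 CPM in the knockout libraries, against 247.5 and 219.9 in WT. In Dicer knockout cells 3 of the 4 were called lower, where 11.1% of all genes were called. In Ago1&Ago2 double knockout cells 2 had a negative and 2 a positive log2 fold change. The positive ones were Fbln2 (29.3 and 19.85 CPM, against 14.1 and 10.25 in WT) and Col6a2 (8.77 and 17.5, against 7.56 and 6.76). The part of these cell types in the levels of Psme2 and of the standard subunits was not tested.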

How the data were processed

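Per the labels' protocols, cells were treated with cycloheximide, lysates were digested with RNase I, monosomes were purified on columns, ribosomal RNA was depleted and Drosophila RNA was spiked in. The authors deposited raw read counts per gene, and the tools named in the submitters' processing notes are Trimmomatic and Bowtie2, with the builds mm10 (GRCm38) and dm6 (BDGP6). How reads that match several genes were counted is not given in the sources used here, and no spike-in scaling was applied. Columns were matched to samples by the library numbers in the labels, and replicate numbers are those of the sample titles, which for the Ago1&Ago2 libraries (1 and 2) differ from the column names (2 and 3).

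All 10 libraries entered 1 fit in edgeR 4.0.16 (R 4.3.3), with TMM factors, the filterByExpr filter with its minimum count of 10 (33 genes removed), 1 mean per group and no further covariate. The quasi-likelihood test was 2-sided, with Benjamini-Hochberg adjustment over all 10978 genes and a threshold of 0.05. The common biological coefficient of variation was 0.306. Replicates correlated at Pearson r between 0.925 and 0.982 on log2 CPM across genes, and their counts differed beyond sampling noise in every group. DESeq2 1.42.0, limma-voom (limma 3.58.1), other scalings, no filter, a replicate block, separate fits and leaving out each library were the alternatives. The fitting script was tested on simulated data.

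Coding lengths, coordinates and 28-base words came from GENCODE M21 on GRCm38, with the longest coding sequence of a gene, and promoters from RefSeq on GRCm38.p6, in which 39 of 47 members had a window. The members, the gene and marker lists and the tests were chosen with earlier results of these data known. Named genes are the immunoproteasome genes and their counterparts, members past the threshold, and the 4 members with the smallest p in each knockout. Other members named with values are the extremes of a role or of the order of levels and were chosen after their values were seen, as were the mean over 3 knockouts and the density over unshared positions.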

Additional observations from a re-analysis of the deposited data

Results flagged for a closer look

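Psme2 was picked out because its level differed between 2 knockouts by the test of the difference itself. The log2 difference was -2.58 for the libraries labelled Dgcr8 knockout (11.3 and 11.8 CPM) against the Dicer knockout libraries (87.0 and 50.2 CPM), with an edgeR adjusted p of 0.0064. Groups of 2 libraries were not examined for libraries that stand apart. The level of Dgcr8 was above WT in the libraries of its label, as in the other knockouts, and could not check that label.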

How the results depend on the processing

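Of the counts of called members, those for Drosha, Ago1&Ago2 and the Dgcr8 label over WT were 0 under every alternative run. For Dicer over WT, 1 member was called in the fit reported, 2 with total counts as scaling, 3 with the replicate block, 3 with DESeq2 and 11 with only the groups compared, and between 0 (without WT library 2) and 2 when 1 library was left out. For the mean of 4 knockouts the count of 0 became 1 with total counts, 2 with the block, 1 with limma-voom, 2 with DESeq2 and 1 for the mean without the Dgcr8 label, and lay between 0 and 1 over left-out libraries. For the Dgcr8 label against Dicer the count of 1 became 2 with the block and 2 with DESeq2, and lay between 0 and 2 over left-out libraries. For the Dgcr8 label against Drosha, DESeq2 called 1. For Dicer against Ago1&Ago2, the block called 1, limma-voom 1 and DESeq2 2. Over any difference among the 5 groups, DESeq2 called 2, and leaving out 1 library gave between 0 (without Dicer library 1) and 1. The cause of these shifts was not tested. Fits of only the groups compared gave no separate value for the mean of 4 knockouts or for any difference.

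Same-numbered libraries deviated together with correlations between 0.0928 and 0.342 over the 10 pairs of groups, and since the lowest is under 0.1, with 9 of the 10 above it, the numbers were not taken as pairs. With the block, Psma3 (log2 fold change -1.65, edgeR adjusted p = 0.042) and Psmd7 (-0.81, 0.042) passed in Dicer knockout cells beside Psme2, and Psmd1 (-0.61, 0.030) and Psme2 (1.02, 0.026) in the mean of 4 knockouts. The block uses the replicate numbers of the sample titles, 1 and 2, while the deposited columns of the Ago1&Ago2 libraries are numbered 2 and 3, and a block by column numbers was not run. Over all genes, leaving out 1 library gave between 0 and 107 calls for the Dgcr8 label, 1 and 514 for Drosha, 139 and 1503 for Dicer, 3 and 494 for Ago1&Ago2, 3 and 1100 for the mean and 173 and 931 for any difference, against 8, 378, 1220, 316, 776 and 710 reported. The other alternatives gave between 0 and 160, 111 and 972, 1045 and 3224, 317 and 942, 779 and 1444, and 713 and 1906 in the same order.

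Leaving out 1 library moved the median log2 fold change of the 31 standard subunits between -0.025 and 0.075 under the Dgcr8 label, where its sign changed, between -0.52 and -0.27 in Dicer knockout cells, between -0.24 and -0.11 in Drosha knockout cells, and between -0.52 and 0.15 in Ago1&Ago2 double knockout cells, where its sign also changed. Signs of uncalled genes also changed. Under the Dgcr8 label limma-voom gave 0.055 for Psma8 and 0.20 for Psmb9, and left-out libraries gave ranges of -1.02 to 0.29 for Psma8, -1.15 to 0.045 for Psmb10, -0.24 to 0.16 for Psmb5, -0.19 to 0.027 for Psmb6, -0.18 to 0.023 for Psmb7, -0.90 to 0.22 for Psmb9, -0.34 to 0.10 for Psmd7 and -0.44 to 0.091 for Psme3. In Dicer knockout cells they were -0.15 to 0.072 for Psma6, -0.88 to 0.19 for Psmb5 and -0.60 to 1.72 for Psmb9. In Ago1&Ago2 double knockout cells Psma6 was -0.014 with total counts, -0.013 with the block, -0.014 with only the groups compared and -0.042 with limma-voom, and left-out libraries gave -1.12 to 0.16 for Psma3, -0.41 to 0.34 for Psma6, -0.29 to 0.17 for Psma8, -0.45 to 0.13 for Psmb10, -0.68 to 1.14 for Psmb5, -0.25 to 0.36 for Psmb6, -0.57 to 0.34 for Psmb7 and -0.15 to 0.68 for Psme1.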
